A study of Mus musculus with 9 samples.

Results

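The expression of 36 genes of glycolysis and of the hypoxia response was compared across the splenic B cells of 9 animals. The genes were taken by name from the deposited gene table, and 34 of the 36 passed the filter on low counts and were tested among 11165 genes. Epas1, which encodes HIF-2α, had at most 8 reads in a library, and Egln3, a prolyl hydroxylase, had at most 20 reads; neither was tested. The name Aldoa belongs to 2 gene identifiers in the table, and the one that carried the reads was used.

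The mice were of the C57/BL6NTac strain. Human MTCP1 was expressed in the B cells of 3 Eµ-MTCP1 mice, which descend from the single founder line Z36, and human TCL1 in those of 3 Eµ-TCL1 mice. Both transgenes are driven by a VH promoter and the IgH-Eµ enhancer, so expression is directed to B cells. The 3 wildtype mice carried no transgene. The transgenic mice were diseased and age-matched, and the B cells were purified with a pan B cell kit, 1 library per mouse. Each leukemia is clonal, so the leukemic cells of a mouse descend from few founding cells, and both leukemia groups were compared with the same 3 wildtype mice. Replicate numbers follow the order of deposit and pair no mice. On the authors' log2 scale, human TCL1A was 14.9 to 15.6 in Eµ-TCL1 mice and 6.04 to 6.96 in the other mice, and human MTCP1 was 11.1 to 12.3 in Eµ-MTCP1 mice and 5.85 to 6.19 in the others.

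Glycolysis breaks glucose down to pyruvate in the cytosol, and lactate dehydrogenase can turn pyruvate into lactate. The transcription factor HIF-1, made of the subunits HIF-1α (Hif1a) and ARNT, raises the transcription of many glycolytic enzymes when oxygen is low. With oxygen, prolyl hydroxylases (Egln1, Egln3) mark HIF-1α for the ubiquitin ligase that contains VHL. Proliferating lymphocytes are known for high glycolytic rates. HIF binds DNA at short sequences with the core ACGTG or GCGTG.

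Because HIF acts through such sequences, the promoters of 3 members that differed from wildtype in at least 1 group are shown, chosen with the results known. Each sequence runs from 250 bases before the RefSeq start of transcription up to that start (build GRCm38.p6), in the direction of the gene. Capitals mark every ACGTG or GCGTG on either strand, where the other strand reads CACGT or CACGC. The Bnip3 window lies at chr7:138909507-138909756 on the minus strand, that of Adm at chr7:110627407-110627656 on the plus strand, and that of Eno3 at chr11:70656926-70657175 on the plus strand.
Bnip3: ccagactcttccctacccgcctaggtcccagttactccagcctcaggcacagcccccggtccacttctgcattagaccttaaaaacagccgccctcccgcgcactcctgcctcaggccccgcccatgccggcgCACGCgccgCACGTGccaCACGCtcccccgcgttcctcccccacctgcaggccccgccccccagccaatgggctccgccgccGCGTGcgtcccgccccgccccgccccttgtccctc
Adm: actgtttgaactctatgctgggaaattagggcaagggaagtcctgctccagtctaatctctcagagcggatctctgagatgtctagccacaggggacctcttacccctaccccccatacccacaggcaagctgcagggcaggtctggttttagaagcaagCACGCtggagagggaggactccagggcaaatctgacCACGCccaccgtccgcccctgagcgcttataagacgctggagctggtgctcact
Eno3: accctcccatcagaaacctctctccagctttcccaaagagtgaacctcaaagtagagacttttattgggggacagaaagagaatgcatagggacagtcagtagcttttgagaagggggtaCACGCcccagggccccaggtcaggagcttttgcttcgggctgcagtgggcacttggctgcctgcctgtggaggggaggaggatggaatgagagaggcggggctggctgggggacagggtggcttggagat
Bnip3 had 5 matches, of which 2 overlap within CACGTG, Adm had 2 and Eno3 had 1. In the whole windows of 300 bases, which run 50 bases past the start, 31 of the 34 members with a window held at least 1 match, against 46.7% of all 27025 genes with a window. ACGTG alone was in 22 of the 34 members and in 21.8% of all genes. A gene with several windows counted if any of them held a match. Per window, a match was in 79.6% of the 49 member windows and in 43.8% of all 32851 windows, and ACGTG alone in 51.0% and 19.6%. The members were listed as glycolysis or hypoxia genes, so these shares are no test. The promoters of Tpi1 and Pfkfb3, which were higher in both leukemia groups, are not shown. Tpi1 had no match in its window, and the Pfkfb3 windows had 4 and 1 matches. A match describes letters only, and binding was not measured.

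Few of the 34 tested members differed from wildtype. In Eµ-MTCP1 mice 3 were higher (Tpi1, Eno3 and Pfkfb3) and 1 was lower (Bnip3). In Eµ-TCL1 mice 3 were higher (Tpi1, Pfkfb3 and Adm) and Bnip3 was again lower. These are 4 of 34 members each, where 9.48% of all tested genes passed the same test in Eµ-MTCP1 mice (edgeR quasi-likelihood test, Benjamini-Hochberg adjusted p under 0.05; 5.49% higher, 3.99% lower) and 9.2% in Eµ-TCL1 mice (5.07% higher, 4.13% lower), so the share of members called was near that of all genes. For the 6 leukemic mice together, the mean of the transgenic groups was compared with wildtype. There 4 members were higher and 1 lower, where 13.1% of all genes were called (6.95% higher, 6.16% lower). Between Eµ-TCL1 and Eµ-MTCP1 mice no member was called, where 0.0448% of all genes (5 genes) were; 5 of the 34 members had an unadjusted p under 0.05 there, as did 6.42% of all genes (717 genes), and DESeq2 called none. The median log2 fold change of the tested members was 0.04 for Eµ-MTCP1 and 0.08 for Eµ-TCL1, beside -0.02 and -0.01 over all genes.

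**Figure D1:**
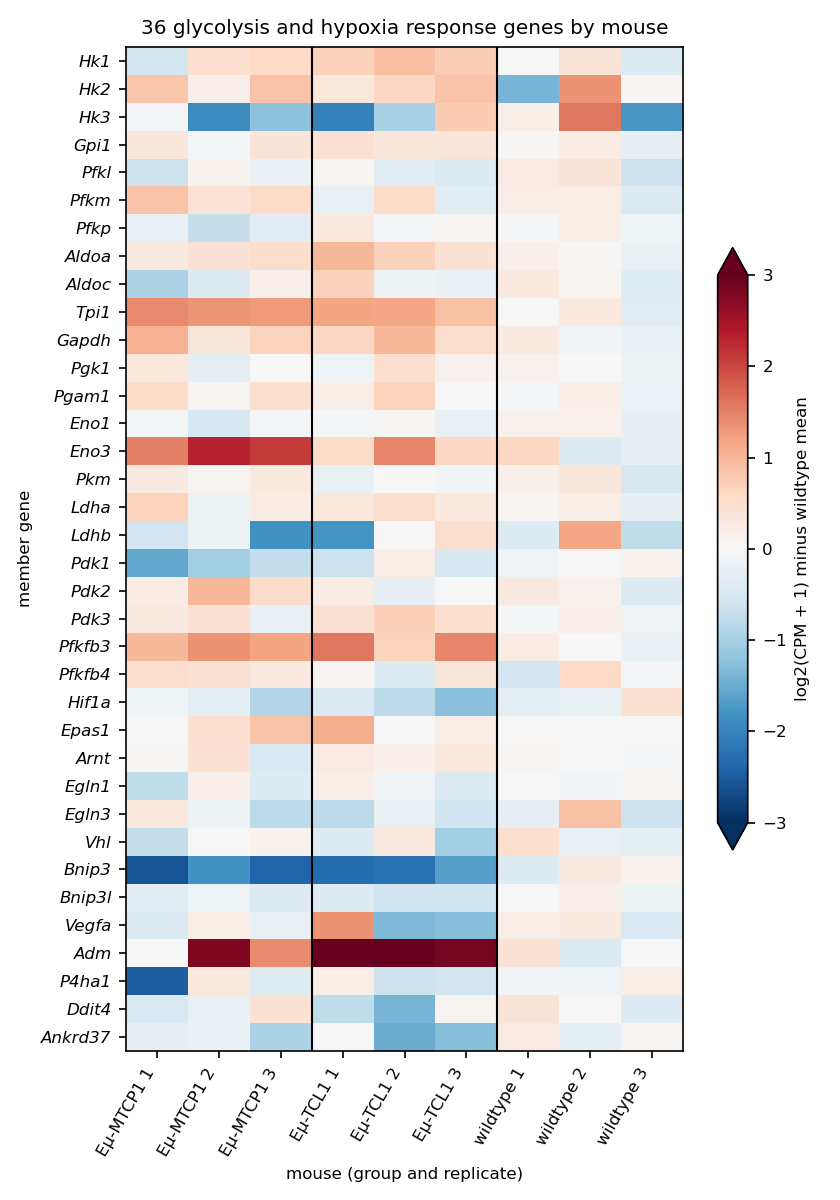
Each row is a member gene and each column a mouse; color gives log2(CPM + 1) minus the wildtype mean, where CPM is the read count scaled to a common library size. Tpi1 and Pfkfb3 are red in all 6 leukemic mice, Bnip3 is blue in all 6, and most other rows are pale or mixed.

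**Figure D2:**
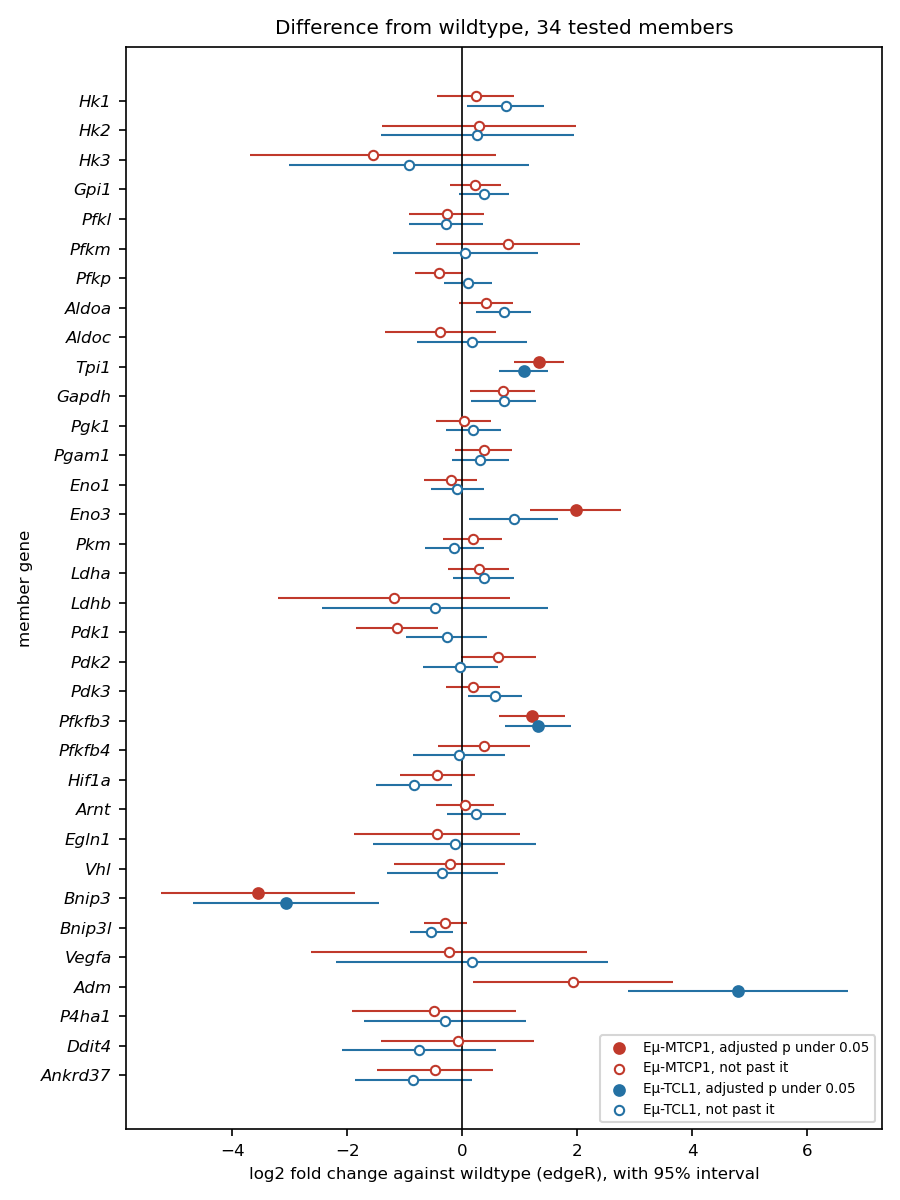
Points give the log2 fold change of each tested member against wildtype with its 95% interval, for Eµ-MTCP1 (red) and Eµ-TCL1 (blue); filled points passed an adjusted p under 0.05. Most intervals include 0, and 5 members have a filled point in either group.

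Tpi1 encodes triosephosphate isomerase, which interconverts the 2 three-carbon products of aldolase (chr6:124810586-124814296, minus strand). Its level was 243, 225 and 219 CPM in the Eµ-MTCP1 mice, 207, 202.4 and 166 CPM in the Eµ-TCL1 mice, and 90.65, 111 and 72.2 CPM in wildtype. Every leukemic mouse was above every wildtype mouse. The log2 fold change was 1.33 (SE 0.20, adjusted p = 0.0023, edgeR) in Eµ-MTCP1 and 1.07 (SE 0.19, adjusted p = 0.00686, edgeR) in Eµ-TCL1 mice. The call held in all 18 alternatives of each comparison.

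Pfkfb3 makes fructose-2,6-bisphosphate, an activator of phosphofructokinase-1 (chr2:11471433-11554077, minus strand). The Eµ-MTCP1 mice had 42.9, 55.8 and 49.6 CPM, the Eµ-TCL1 mice 66.0, 34.5 and 60.03 CPM, and the wildtype mice 24.8, 20.95 and 18.5 CPM, so that the leukemic and wildtype mice did not overlap. The log2 fold change was 1.21 (SE 0.26, adjusted p = 0.0165, edgeR) and 1.32 (SE 0.26, adjusted p = 0.0103, edgeR). Without wildtype replicate 2, the only library on another lane, the values were 1.17 (adjusted p = 0.0676) and 1.28 (adjusted p = 0.0503). The call was also lost without wildtype replicate 3 in both comparisons (adjusted p = 0.0758 and 0.0543) and without Eµ-MTCP1 replicate 3 in the first (adjusted p = 0.0517). The related Pfkfb4 had 0.37 and -0.05 and was not called in either group.

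Eno3, the muscle-type enolase, was at 108, 187 and 161 CPM in Eµ-MTCP1 mice, at 55.5, 104 and 57.0 CPM in Eµ-TCL1 mice and at 57.7, 28.1 and 31.0 CPM in wildtype (chr11:70657202-70662513, plus strand). The Eµ-MTCP1 mice lay above all wildtype mice, and 2 Eµ-TCL1 mice lay below the highest wildtype mouse. The log2 fold change was 1.97 (SE 0.36, adjusted p = 0.00722, edgeR) in Eµ-MTCP1 mice. In Eµ-TCL1 mice it was 0.89 (SE 0.35, adjusted p = 0.144, edgeR), and 0.24 when transcript lengths entered the fit. Per length the Eµ-TCL1 and wildtype means were 28.8 ± 11.7 and 29.2 ± 7.47 TPM (a level divided by transcript length; SD, n = 3), where 60.9% of the value in wildtype replicate 2 came from annotated transcripts shorter than 300 bases. Without these transcripts the wildtype mean was 17.6 ± 4.74 TPM. The difference between the leukemia groups was -1.08 (95% interval -1.85 to -0.31, adjusted p = 0.629, edgeR), so the groups were not shown to differ. The ubiquitous Eno1 was not called in either group.

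Bnip3 encodes a mitochondrial protein of mitophagy and is a known HIF target (chr7:138890836-138909519, minus strand). It had 1, 7 and 2 reads in Eµ-MTCP1 mice, 3, 4 and 9 reads in Eµ-TCL1 mice and 29, 69 and 53 reads in wildtype mice, and every leukemic mouse lay below every wildtype mouse. The log2 fold change was -3.56 (SE 0.76, adjusted p = 0.0164, edgeR) and -3.07 (SE 0.73, adjusted p = 0.0253, edgeR). These rest on few reads, and the 95% intervals are wide, from -5.25 to -1.87 and from -4.69 to -1.46. The sizes depended on single mice, at -4.59 without Eµ-MTCP1 replicate 2 in the first comparison and -3.70 without Eµ-TCL1 replicate 3 in the other. On the deposited gene counts the Eµ-TCL1 value was -2.59 with an adjusted p of 0.0642, and without wildtype replicate 2 the adjusted p was 0.068 in Eµ-MTCP1 and 0.101 in Eµ-TCL1 mice. The Eµ-MTCP1 call was also lost without wildtype replicate 3 or Eµ-MTCP1 replicate 3 (adjusted p = 0.0654 and 0.0684), and the Eµ-TCL1 call without wildtype replicate 1 or 3 or Eµ-TCL1 replicate 1 or 2 (adjusted p from 0.0525 to 0.0935). In bulk samples fewer cells of a type and less RNA per cell cannot be told apart. The related Bnip3l had a log2 fold change of -0.29 in Eµ-MTCP1 and of -0.54 (adjusted p = 0.0738, edgeR) in Eµ-TCL1 mice, where DESeq2 called it lower (adjusted p = 0.0239), as did edgeR with no scaling beyond library size. For the 6 leukemic mice it was -0.41 (adjusted p = 0.0838, edgeR), and 3 of 17 alternatives called it.

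Adm encodes adrenomedullin, a vasodilator peptide and known HIF target (chr7:110627661-110629820, plus strand). It was at 7.76, 59.9 and 22.2 CPM in Eµ-MTCP1 mice, at 442, 155 and 63.1 CPM in Eµ-TCL1 mice and at 10.7, 5.54 and 7.68 CPM in wildtype mice. All Eµ-TCL1 mice were above wildtype, while Eµ-MTCP1 replicate 1 lay within the wildtype range. The log2 fold change was 4.79 (SE 0.86, adjusted p = 0.00653, edgeR) in Eµ-TCL1 mice, and 1.92 (SE 0.79, adjusted p = 0.162, edgeR) in Eµ-MTCP1 mice. Without Eµ-TCL1 replicate 1 the Eµ-TCL1 value was 3.78, and without Eµ-MTCP1 replicate 2 the Eµ-MTCP1 value was 0.88. The difference between the leukemia groups was 2.87 (95% interval 1.14 to 4.60, adjusted p = 0.502, edgeR), 1.86 without Eµ-TCL1 replicate 1 and 3.87 without Eµ-MTCP1 replicate 2.

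**Figure D3:**
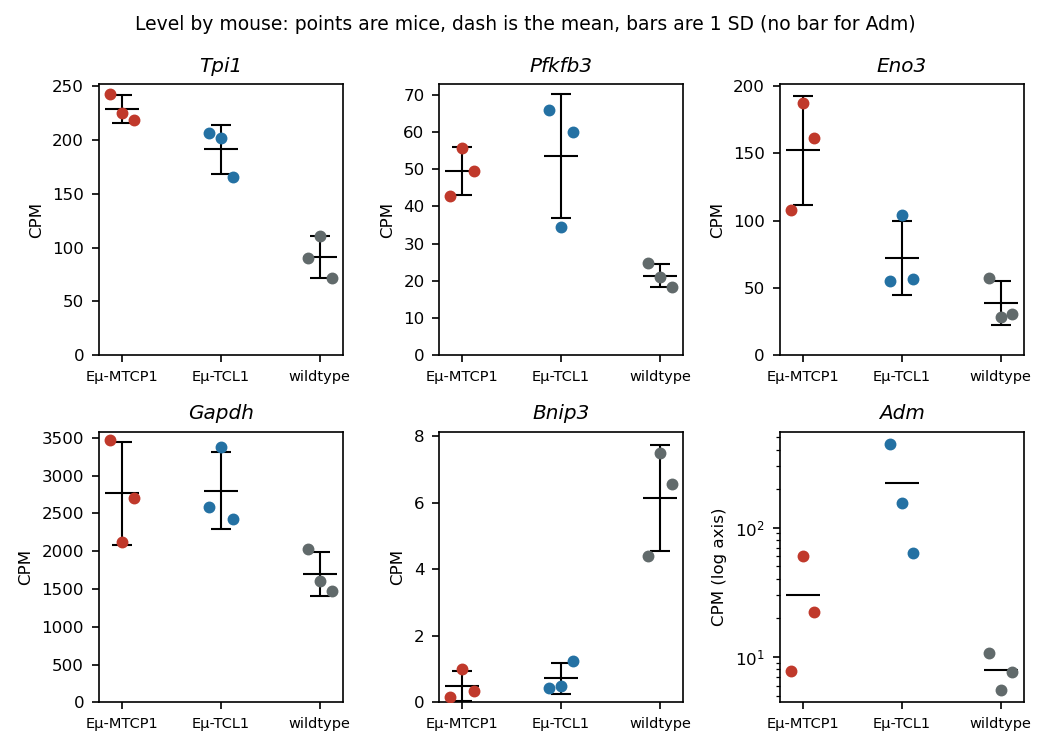
Level in CPM of 6 members by mouse, with the group mean as a dash and 1 SD as bars (no bar for Adm, whose axis is logarithmic). Tpi1, Pfkfb3 and Gapdh are higher, and Bnip3 lower, in each leukemic mouse than in each wildtype mouse; Gapdh missed the threshold with edgeR and passed it with DESeq2 and on the deposited gene counts.

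Among the 16 glycolytic enzymes, 2 were higher with MTCP1 (Tpi1, Eno3), 1 was higher with TCL1 (Tpi1), and none was lower, where 5.49% and 5.07% of all genes were called higher. Their median log2 fold change was 0.23 in both groups. Gapdh, the most abundant, was measured at 3475, 2123 and 2697 CPM in the Eµ-MTCP1 group, at 2585, 3383 and 2430 CPM in the Eµ-TCL1 group and at 2031, 1602 and 1477 CPM in wildtype. Its log2 fold change was 0.70 (adjusted p = 0.122, edgeR) and 0.72 (adjusted p = 0.111, edgeR), while DESeq2 called it at adjusted p = 0.0346 and 0.0305, where DESeq2 called 14.7% and 15.2% of all genes. On the deposited gene counts edgeR also called it in both groups (adjusted p = 0.0322 and 0.0190), but those counts hold at most 2202 Gapdh reads in a library, against up to 27554 in the table used here. In the 6 leukemic mice DESeq2 called 8 members, where it called 18.8% of all genes. Aldoa, a fructose-bisphosphate aldolase, was also above wildtype in all 6 leukemic mice, with log2 fold changes of 0.41 (adjusted p = 0.259, edgeR) and 0.72 (adjusted p = 0.0635, edgeR). DESeq2 called it in Eµ-TCL1 mice (adjusted p = 0.00505), and there it also just passed the threshold on the deposited gene counts. Aldoc, the brain-type aldolase, had log2 fold changes of -0.38 and 0.17. The other enzymes were not called. Of the hexokinases, Hk1 had log2 fold changes against wildtype of 0.23 in the Eµ-MTCP1 and 0.75 in the Eµ-TCL1 group (95% interval 0.09 to 1.42 in the latter, adjusted p = 0.153, edgeR). Gpi1, the glucose phosphate isomerase, had 0.23 and 0.38. Of the phosphofructokinase genes, which catalyze the committed step, Pfkl had -0.28 in both groups and Pfkp had -0.41 and 0.11, while the muscle form Pfkm had 0.79 and 0.05. In the lower part of the pathway, Pgk1 had 0.02 and 0.19, Pgam1 0.37 and 0.31, Eno1 -0.20 and -0.09, and Pkm 0.18 and -0.14. The genes with few reads had wide intervals: that of Hk3 ran from -3.69 to 0.59 and that of Hk2 from -1.40 to 1.97 in the Eµ-MTCP1 comparison. In all, 4 of 34 members lay above and 1 lay below all wildtype mice in every leukemic mouse, where 9.44% and 9.14% of all genes did.

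The summed level of the 16 enzymes was 6714 ± 850.0 CPM (SD, n = 3) for Eµ-MTCP1, 6881 ± 755 CPM for Eµ-TCL1 and 5142 ± 794 CPM in wildtype mice, ratios of 1.31 and 1.34. The sum depended on the scale. In TPM, which divides by effective length, the ratios were 1.0 and 1.08. CPM is also scaled by TMM, with factors of 1.02 to 1.18 in wildtype and 0.91 to 1.01 in leukemic mice, and TPM is not. The TMM scaling lowers the CPM of wildtype mice relative to leukemic mice. How much of the change in ratio came from this scaling and how much from length was not tested. Short annotated transcripts weigh heavily in TPM. Pkm-208, of 155 bases, took 0.32 to 0.90% of the Pkm reads but 34.4 to 60.4% of the Pkm TPM, and transcripts under 300 bases took 10.3 to 37.3% of the Eno1 TPM. Without transcripts under 300 bases, an alternative chosen after seeing the data, the ratios were 1.06 and 1.17. No test was made of the sum. Per coding length, Gapdh was the most abundant enzyme in wildtype, with 1089 ± 107 TPM, and Eno1, Pkm and Aldoa followed at 670 ± 222, 564 ± 257 and 398 ± 50.2 TPM, neighbors in an order that the spread does not fix. Without the short transcripts Gapdh still stood first, at 1041 ± 45.3 TPM, and Eno1, Aldoa and Pkm followed at 466 ± 82.7, 398 ± 50.2 and 311 ± 102 TPM. Hexokinase 2 and the muscle phosphofructokinase Pfkm were below 1 TPM on average in every group. Hk3, a hexokinase of myeloid cells, ranged from 2.38 to 22.3 CPM in leukemic mice and was 14.5, 40.6 and 3.10 CPM in wildtype mice. The highest Hk3 value, in wildtype replicate 2, stood beside the highest sum of 10 myeloid markers, 4071 CPM. The next highest, 22.3 CPM in Eµ-TCL1 replicate 3, stood beside a sum of 1558 CPM, below the 2233 CPM of Eµ-MTCP1 replicate 1, where Hk3 was 12.4 CPM. The part of myeloid cells in these values was not tested.

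**Figure D4:**
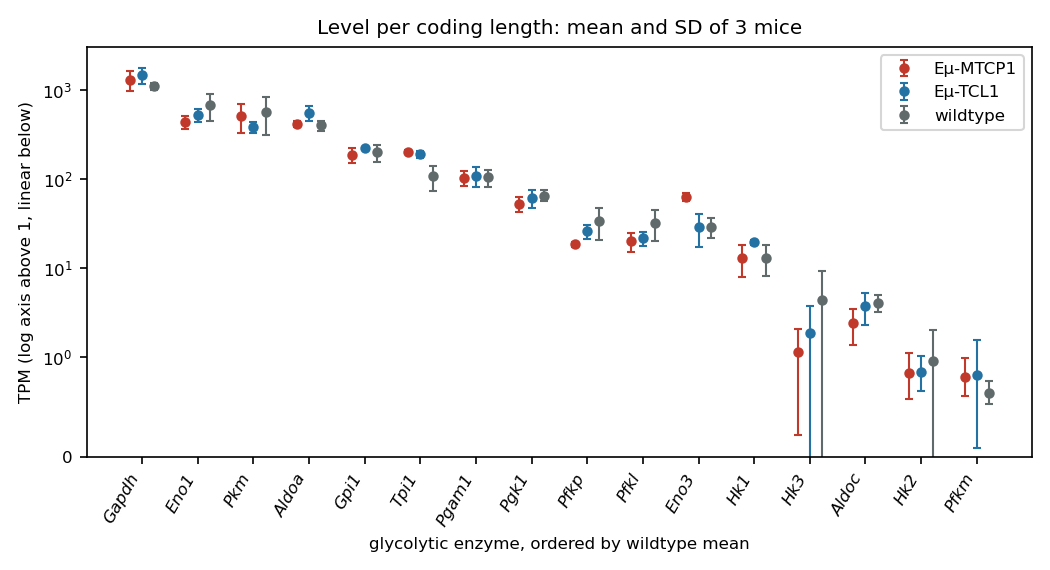
Mean and SD of 3 mice in TPM for each glycolytic enzyme, in order of the wildtype mean, on an axis that is logarithmic above 1; bars that would pass 0 are cut there. Gapdh stands highest in every group, and Hk2 and Pfkm lie below 1.

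Pkm, which makes pyruvate, yields the M1 and M2 forms by using 1 of 2 neighboring exons. The exons, at chr9:59675568-59675734 for Pkm-201 (M2) and chr9:59675029-59675195 for Pkm-202 (M1), both on the plus strand of GRCm38, have 167 bases each and differ at 64 of them, which are shown in capitals.
Pkm-201: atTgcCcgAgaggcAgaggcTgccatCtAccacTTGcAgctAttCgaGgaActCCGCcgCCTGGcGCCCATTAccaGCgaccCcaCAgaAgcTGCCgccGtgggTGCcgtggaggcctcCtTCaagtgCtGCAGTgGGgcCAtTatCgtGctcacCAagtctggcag
Pkm-202: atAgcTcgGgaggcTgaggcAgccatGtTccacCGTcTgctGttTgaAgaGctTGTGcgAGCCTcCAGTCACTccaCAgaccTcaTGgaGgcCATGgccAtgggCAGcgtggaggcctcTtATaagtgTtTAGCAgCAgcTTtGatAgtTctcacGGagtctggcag
The M1 transcript took 1.54, 2.44 and 1.87% of the Pkm reads in the Eµ-MTCP1 group, 2.01, 0.96 and 3.88% in the Eµ-TCL1 group, and 3.47, 3.75 and 5.27% in wildtype. All Eµ-MTCP1 mice lay below wildtype, but Eµ-TCL1 replicate 3 lay within the wildtype range. The shares depended on the reference. On the standard one they were 0.86, 1.48 and 1.34%, then 1.25, 0.67 and 2.67%, and 2.55, 2.99 and 3.32% in wildtype, with the same mouse inside the wildtype range. The 95% Wilson intervals, which cover counting error only, were 1.23 to 1.89% for Eµ-MTCP1 replicate 1 and 3.01 to 4.002% for wildtype replicate 1. No test was made. Pfkfb3-206 took 16.5 to 73.8% of Pfkfb3 reads in the leukemic mice and 0, 18.5 and 0% in wildtype. On the standard reference the ranges were 23.9 to 42.2% and 30.7, 0 and 12.9%. On each reference one wildtype mouse lay inside the leukemic range, replicate 2 on the first and replicate 1 on the other, so the shares of single mice are uncertain. Vegfa had between 2 and 49 reads, too few for a share.

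**Figure D5:**
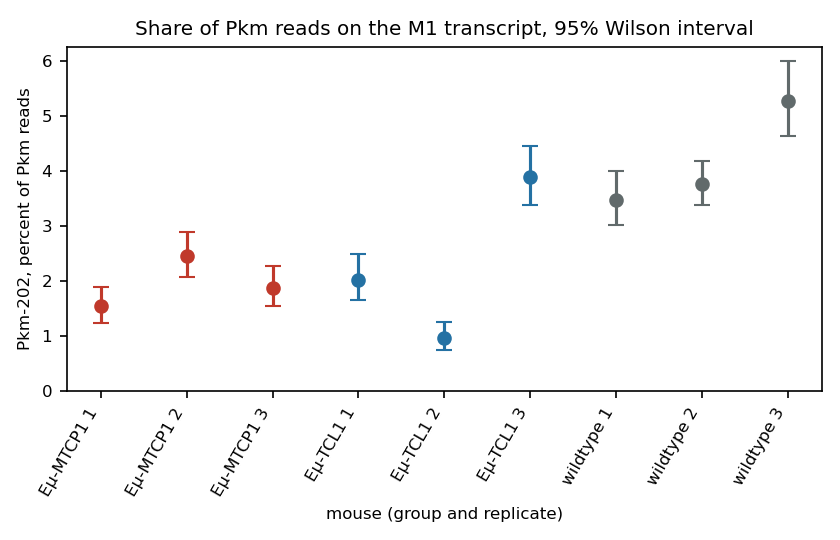
Share of Pkm reads assigned to Pkm-202, in percent, for each mouse with its 95% Wilson interval. The Eµ-MTCP1 mice lie below the wildtype mice, while Eµ-TCL1 replicate 3, at 3.88%, does not.

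None of the 5 pyruvate and lactate enzymes was called. Pdk1, a kinase that inhibits pyruvate dehydrogenase and a known HIF target, had a log2 fold change of -1.13 (adjusted p = 0.0528, edgeR) in Eµ-MTCP1 and of -0.27 in Eµ-TCL1 mice; 6 of 18 alternatives called it in Eµ-MTCP1 mice. Pdk2 had 0.63 and -0.03, and Pdk3 had 0.19 and 0.56. Ldha, which makes lactate, had a log2 fold change of 0.28 (adjusted p = 0.493, edgeR) and 0.37 (adjusted p = 0.370, edgeR). Ldhb, the other lactate dehydrogenase subunit, had -1.18 (95% interval -3.20 to 0.83) and -0.48 (-2.44 to 1.49). Hif1a was at 22.4 to 49.7 CPM in leukemic and 45.2 to 75.2 CPM in wildtype mice, with a log2 fold change of -0.44 (adjusted p = 0.387, edgeR) and -0.84 (adjusted p = 0.109, edgeR); for the 6 leukemic mice 1 of 17 alternatives called it lower. Arnt had log2 fold changes of 0.05 and 0.24, which turned to -0.47 and -0.35 when transcript lengths entered the fit. Egln1 had log2 fold changes of -0.45 and -0.13, Vhl had -0.22 and -0.35, and none of Hif1a, Arnt, Egln1 and Vhl was called. HIF-1α is controlled mainly through its degradation, which these data do not measure. Of the other target genes, Vegfa, an angiogenic growth factor, had -0.23 and 0.17. The Eµ-TCL1 value for Vegfa rests on replicate 1, with 49 reads against 2 in each of the other two mice, and was -2.98 without it. P4ha1, a collagen prolyl hydroxylase, had -0.49 and -0.31. Ddit4, an inhibitor of mTORC1 signaling, had -0.08 and -0.76, and Ankrd37 had -0.47 and -0.86. These were not called in any comparison.

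Of 75 tested genes from neighboring pathways that are not members, 9 were called with the MTCP1 transgene and 7 with TCL1, which is 12% and 9.33% where 9.48% and 9.2% of all genes were called, near the background. In the pentose phosphate pathway, which branches from glycolysis, 3 of 10 were higher in both groups: H6pd (log2 fold change 2.86 and 2.23), Rpia (1.49 and 1.83) and Prps2 (2.17 and 1.97), which leads from ribose-phosphate to nucleotide synthesis. Prps2 was at 59.2 to 98.0 CPM in leukemic mice and 15.8 to 21.6 CPM in wildtype. The glucose transporter gene Slc2a3 was lower in Eµ-MTCP1 mice (-1.50, adjusted p = 0.0275, edgeR), and in Eµ-TCL1 mice it was -0.58 (adjusted p = 0.336, edgeR). Of 24 other HIF target genes, Bhlhe40 was lower in both groups (-3.40 and -2.77), its relative Bhlhe41 was higher (2.99 and 1.87), and the chemokine receptor gene Cxcr4 was lower (-1.60 and -1.78). Of 14 other HIF regulators, Egln2 and Rbx1 were called higher in Eµ-MTCP1 mice (0.78 and 0.86, with 0.50 and 0.54 for Eµ-TCL1), and Hsp90ab1 was called higher in Eµ-TCL1 mice (1.08, with 0.63 for Eµ-MTCP1). All 3 were called higher in the 6 leukemic mice together, and none was called between the leukemia groups. With the 6 leukemic mice together, Siah1a (-0.90) and Ccng2 (-1.005) were lower as well.

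Markers of other cells varied between libraries. The 7 B cell markers summed to 7223 to 10879 CPM in all mice. The 10 myeloid markers summed to 879 to 2233 CPM in the Eµ-MTCP1 group, 375 to 1558 CPM in the Eµ-TCL1 group and 961 to 4071 CPM in wildtype mice, and the 7 T cell markers to at most 50.2 CPM. The 8 markers of dividing cells summed to 509 to 1696 CPM for Eµ-MTCP1, 672 to 979 CPM for Eµ-TCL1 and 502 to 668 CPM in wildtype mice, and Mki67 was at 112 to 515 CPM in the 6 leukemic and 71.0 to 105 CPM in wildtype mice; edgeR called it in Eµ-MTCP1 mice and in the 6 leukemic mice together. The 8 erythroid markers summed to 24.2 to 325 CPM and the 5 plasma cell markers to 127 to 2940 CPM over the 9 mice, the 6 endothelial and stromal markers to 111 to 179 CPM and the 5 platelet markers to at most 2.46 CPM, with Kdr and Ppbp at 0 reads in every library. Of the single markers, Cd68 and Prdm1 were higher in both leukemia groups, and Ebf1 was lower in the Eµ-TCL1 group. Mitochondrial genes took 2.91 to 10.8% of the reads, the most in wildtype replicate 3. Their part in the results above was not tested.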

How the data were processed

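RNA-sequencing libraries of splenic B cells from 9 mice were grouped by the transgene in the labels. The authors made estimated counts and TPM per transcript with Salmon 1.0.0, on a standard reference and on one with human sequences that mostly holds coding sequences (87.3% of lengths are multiples of 3), so reads from untranslated regions were not counted there. They also deposited whole counts per gene (featureCounts, per the labels) and a table on a log2-like scale made by DESeq2, from which the transgene levels were read; their fold changes and p-values were not used. Between 6464089 and 8053017 reads were assigned per library, and 3 reads correspond to 0.326 to 0.495 CPM. Estimated counts on the reference with human sequences were summed per gene with GENCODE M21 (GRCm38; the paper names another release), rounded, filtered with filterByExpr, scaled by TMM and fitted with edgeR 4.0.16 in R 4.3.3 (glmQLFTest, two-sided), all 9 libraries in 1 fit, with Benjamini-Hochberg adjustment. CPM is scaled by TMM. TMM factors were 0.911 to 1.18. DESeq2 1.42.0 was an alternative. The kits named include both Nextera XT and a stranded kit, so the strand of the reads is not clear. Promoters are from RefSeq. Members, gene lists and tests were chosen with earlier results of these data known. All members are named, and other pathway genes if called in any comparison. All columns of per-sample values that were used were mapped to a sample.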

Additional observations from a re-analysis of the deposited data

How the results depend on the processing

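No paired analysis was possible because the labels give no replicate numbers shared between groups. No called member changed sign under any of the 18 alternatives (17 for the 6 leukemic mice together), and 210 of 229 values stayed past the threshold. Of the members not called, 10 changed sign under at least 1 alternative for Eµ-MTCP1 and 14 for Eµ-TCL1. DESeq2 called Pdk1, Tpi1, Pfkfb3, Gapdh, Eno3 and Bnip3 in Eµ-MTCP1 mice, 7 members in Eµ-TCL1 mice and 8 in the 6 leukemic mice. It called 1646 genes in all in Eµ-MTCP1 mice, 1695 in Eµ-TCL1 mice and 73 between the leukemia groups, where edgeR called 5 of the same 11165 genes and, without a low-count filter, 16 of 15362. Leaving out 1 mouse at a time, members called ranged from 2 to 5 in Eµ-MTCP1, 2 to 4 in Eµ-TCL1, 0 to 0 between the groups and 3 to 6 in the 6 leukemic mice; all genes called ranged from 525 to 1028, 517 to 1240, 5 to 8 and 763 to 1613. The lowest counts of members came without wildtype replicate 2 or 3, and in Eµ-MTCP1 mice also without Eµ-MTCP1 replicate 3. Without wildtype replicate 2 or 3, Eno3 and Adm lost their calls in the 6 leukemic mice (adjusted p = 0.0820 to 0.0896, edgeR), and Eno3 lost its call with transcript length offsets (adjusted p = 0.0552, edgeR). With no scaling beyond library size, the median log2 fold change over all genes was -0.26, -0.15 and -0.21, and the higher calls were 391 of 1121, 446 of 1039 and 560 of 1721, against 613 of 1059, 566 of 1027 and 776 of 1464; the cause was not tested. The summed enzyme ratios were 1.0 and 1.08 in TPM, which lacks the TMM scaling of CPM, and 1.06 and 1.17 in TPM without short transcripts (chosen after seeing the data). In CPM, with 1 mouse left out, the ratios ranged from 1.20 to 1.40 and from 1.23 to 1.42. With 3 mice per group, small differences could not be shown.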
